A study of Mus musculus with 6 samples.

Results

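The strong distal elements gained in dKO were 390 of the 10016 regions (3.89%) that differed in accessibility between WT and dKO cells, each at a distance from gene starts and each at least 4 times more open in dKO. They were selected on the measured levels themselves. A region was taken when its mean level across WT and dKO, on the log2 scale of normalised reads, was at least 5 (32 reads), when the dKO level exceeded the WT level by at least 2 on the log2 scale, and when the WT level lay above that of about 3 reads per library. Its nearer edge also had to lie more than 1 kb from every annotated transcript start site and at most 100 kb from a protein-coding one. The difference between dKO and WT is therefore a property of the choice and is described without a test.

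Accessibility was measured by ATAC-seq, in which a transposase cuts open chromatin and the reads over a region count the cuts. All cells were mouse fetal liver cells immortalised by MLL-ENL, a fusion oncogene of myeloid leukaemia, and were grown with interleukin 3. The WT group (2 libraries) was of wild-type genotype and, per the study's methods, carried floxed but intact Cebpa and Cebpb. The dKO group (2 libraries) was Cebpa KO and Cebpb KO and expressed GFP from a vector, whereas the WT labels name no vector. The third group (2 libraries), dKO cells with the rat C/EBPβ isoform LAP*, was not analysed here. The dKO lines were rare clones that survived the deletion and that, per the study, expressed the related factor C/EBPε, so that clone, vector and genotype cannot be told apart. The deposited table gives 1 mean per group and lists only regions past a corrected P-value of 0.05. The values below therefore carry no replicate error, the depth of each library is unknown, and the cell type could not be checked against markers that did not change.

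Enhancers are stretches of open DNA away from gene starts where transcription factors bind together and raise transcription from a promoter. C/EBPα and C/EBPβ are leucine zipper factors that open and maintain enhancers of myeloid genes, often beside PU.1, the ETS factor of the myeloid lineage, and RUNX1. AP-1, the dimer of FOS and JUN proteins, is another leucine zipper factor and is known to bind enhancers in activated and differentiating blood cells.

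The deleted genes were inspected first. A region over Cebpa on chromosome 7 (35118826 to 35119650) had a log2 level of 9.99 in WT and of -0.15, the lowest value listed, in dKO. The regions at Cebpb on chromosome 2 stood at 8.60 and 7.38 in WT and at 3.37 and -0.15 in dKO. Both loci thus followed their labels.

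Of the 10016 listed regions, 6035 (60.3%) were more open in dKO, and 1936 (19.3%) exceeded WT by at least 2. A mean level of at least 5 left 694 of these and the WT minimum left 689. The distance from all start sites left 583, and the distance to a coding gene left the 390, with 193 lying farther out. For comparison, 341 distal regions were lost by the mirrored rule, and 2323 distal regions at the same mean level rose by less than 2. At each limit the members passed into similar regions just outside: a region at Cluap1 with a difference of 2.00 was kept, and one at Asns with 1.99 was not. A region 1004 bp from a start site near Mtss1 was kept, and one at 984 bp near Cd274 was not. A region at Itgb5 with a mean of 5.00 and one near Rnf144b with a WT level of 1.54 were the lowest kept on those measures, and the nearest left out had a mean of 4.99 and, near Gldc, a WT level of 0.93. The farthest region kept, near Prlr, lay 98750 bp from a coding start site and the nearest left out 100446 bp.

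The sequences of the strongest members are shown first, because the motif content described below is read from such windows. Each is the central 200 bases on the plus strand of mm10, named by the nearest protein-coding gene. Capitals mark matches on either strand to AP-1 (TGACTCA), PU.1 (GAGGAAGT), RUNX (AACCACA) or C/EBP (TTACNNAA or TTGCNNAA). The 4 members with the highest dKO level were the following.
Cyp2a5, chr7:26825621-26825820: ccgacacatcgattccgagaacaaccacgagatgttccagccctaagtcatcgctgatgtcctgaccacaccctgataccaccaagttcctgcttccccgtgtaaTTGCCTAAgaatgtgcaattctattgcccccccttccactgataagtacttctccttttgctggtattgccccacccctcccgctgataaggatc
Olfr1469, chr19:13392408-13392607: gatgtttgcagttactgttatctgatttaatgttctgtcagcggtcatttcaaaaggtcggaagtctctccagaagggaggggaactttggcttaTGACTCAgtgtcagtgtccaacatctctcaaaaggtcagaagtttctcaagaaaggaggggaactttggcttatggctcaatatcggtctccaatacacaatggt
Cadm2, chr16:67646854-67647053: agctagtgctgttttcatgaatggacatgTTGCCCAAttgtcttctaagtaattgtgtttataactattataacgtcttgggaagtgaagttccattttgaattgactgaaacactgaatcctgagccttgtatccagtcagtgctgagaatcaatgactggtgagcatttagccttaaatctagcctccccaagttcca
AW549877, chr15:3999247-3999446: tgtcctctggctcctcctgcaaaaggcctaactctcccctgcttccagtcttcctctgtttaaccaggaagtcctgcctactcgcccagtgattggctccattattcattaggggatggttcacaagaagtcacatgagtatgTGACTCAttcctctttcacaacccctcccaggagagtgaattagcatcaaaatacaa

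The 4 members with the largest difference, none of which held AP-1 or PU.1 letters in this window, were these. The pair at Slc8a1 held 1 RUNX match each.
Slc8a1, chr17:81704888-81705087: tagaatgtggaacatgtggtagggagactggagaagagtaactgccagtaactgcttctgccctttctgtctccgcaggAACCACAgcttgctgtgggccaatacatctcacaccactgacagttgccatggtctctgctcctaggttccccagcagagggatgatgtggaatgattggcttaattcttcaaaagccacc
Slc8a1, chr17:81712426-81712625: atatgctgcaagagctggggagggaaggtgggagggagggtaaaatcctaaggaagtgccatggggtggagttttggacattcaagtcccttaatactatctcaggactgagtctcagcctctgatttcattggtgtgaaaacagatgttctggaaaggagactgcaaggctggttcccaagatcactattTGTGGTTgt
Ryr2, chr13:11737823-11738022: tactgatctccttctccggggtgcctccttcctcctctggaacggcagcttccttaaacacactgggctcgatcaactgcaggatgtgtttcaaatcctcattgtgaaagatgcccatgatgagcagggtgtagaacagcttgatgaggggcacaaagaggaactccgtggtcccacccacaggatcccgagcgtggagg
Gm595, chrX:48866765-48866964: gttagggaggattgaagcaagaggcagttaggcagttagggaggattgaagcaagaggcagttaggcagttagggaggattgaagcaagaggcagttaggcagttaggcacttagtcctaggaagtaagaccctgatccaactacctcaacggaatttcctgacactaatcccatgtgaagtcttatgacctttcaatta

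Members with an AP-1 match within 30 bp of a PU.1 match were few, and the 3 with the highest dKO level are shown for the arrangement of both motifs. They were chosen after the values were seen. At Ccdc152 the PU.1 and AP-1 letters shared 1 base.
Samd4, chr14:46981174-46981373: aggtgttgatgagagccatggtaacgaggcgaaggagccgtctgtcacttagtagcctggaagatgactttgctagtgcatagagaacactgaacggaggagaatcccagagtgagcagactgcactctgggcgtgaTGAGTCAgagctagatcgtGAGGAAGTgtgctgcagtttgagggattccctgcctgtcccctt
Hs6st1, chr1:36130379-36130578: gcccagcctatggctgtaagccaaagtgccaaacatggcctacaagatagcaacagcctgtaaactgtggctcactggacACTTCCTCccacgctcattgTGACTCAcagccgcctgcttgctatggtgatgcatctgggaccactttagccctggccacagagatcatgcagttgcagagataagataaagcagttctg
Ccdc152, chr15:3290546-3290745: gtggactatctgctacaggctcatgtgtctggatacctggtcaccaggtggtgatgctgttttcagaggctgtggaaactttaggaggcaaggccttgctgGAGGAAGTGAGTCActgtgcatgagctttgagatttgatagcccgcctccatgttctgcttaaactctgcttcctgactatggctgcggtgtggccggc

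The 2 members with the most AP-1 matches in the window, also chosen after the values were seen, held 5 and 3. The Twsg1 window is a tandem repeat of the motif, whereas the 3 matches at Socs1 stood in different surroundings.
Twsg1, chr17:65961737-65961936: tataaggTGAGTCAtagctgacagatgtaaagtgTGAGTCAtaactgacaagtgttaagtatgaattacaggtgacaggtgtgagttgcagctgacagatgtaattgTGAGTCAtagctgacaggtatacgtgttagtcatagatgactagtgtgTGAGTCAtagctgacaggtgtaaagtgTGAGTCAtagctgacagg
Socs1, chr16:10754661-10754860: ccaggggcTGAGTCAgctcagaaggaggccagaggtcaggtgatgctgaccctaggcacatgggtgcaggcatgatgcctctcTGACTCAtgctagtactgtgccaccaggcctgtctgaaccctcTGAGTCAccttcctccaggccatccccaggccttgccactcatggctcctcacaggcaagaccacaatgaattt

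The 390 members had a median log2 level of 3.78 in WT (1.54 to 6.26) and of 6.35 in dKO (5.72 to 8.94). Their median difference was 2.48, with quartiles of 2.19 and 2.95, so that a typical member was 5.58-fold more open in dKO. Of the members, 196 (50.3%) differed by less than 2.5, 90 by at least 3 and 30 by at least 4. In WT, 56 members stood below a level of 3 and 27 at 5 or above. The set therefore runs from regions almost closed in WT to regions already open there. Only 7 members reached a level of 8 in dKO.

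**Figure D1:**
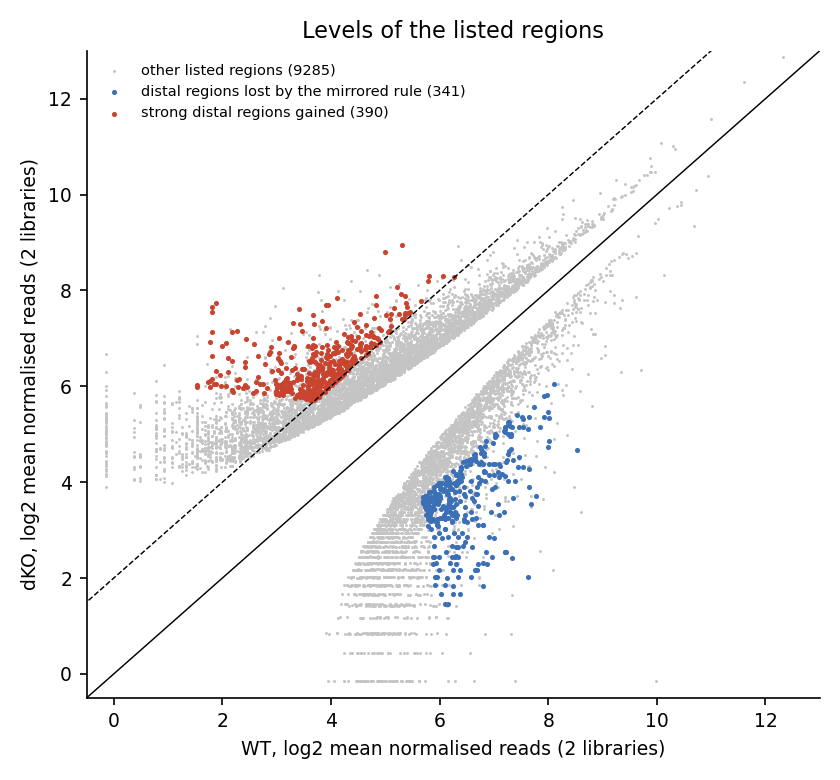
Log2 mean normalised reads of each listed region in WT (x axis) and dKO (y axis), each point the authors' mean of 2 libraries. The 390 gained distal members (red) lie on or above the dashed line of a difference of 2 and the 341 mirrored losses (blue) below the solid line of equal levels, with all other regions in grey.

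The 10 members most open in dKO had levels of 7.88 to 8.94 there and were open in WT too, at 4.83 to 6.26. The highest lay 9082 bp upstream of Cyp2a5, a cytochrome P450 gene (chromosome 7, 26825219 to 26826223), with 5.31 in WT and 8.94 in dKO. The next lay 14875 bp upstream of the olfactory receptor gene Olfr1469 (chromosome 19, 13392042 to 13392974), with 5.00 and 8.80. Soft-masked repeats made up 56.4% of the bases of the first and 37.3% of the second. Another repeat-rich member, near AW549877 (68.6% masked), stood at 6.06 in WT and 8.30 in dKO. Reads in repeats can be placed wrongly, and whether this touches these levels was not tested. The median member was masked over 10.3% of its bases.

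The remainder of the highest members lay at genes of several kinds. A region 25609 bp upstream of Cadm2, which encodes a cell adhesion molecule of the immunoglobulin family, stood at 5.80 and 8.30. A region in an intron of Fnbp1, an F-BAR protein that shapes membranes and actin, had the smallest difference of the 10 (2.01), from 6.26 to 8.27. The member 10851 bp upstream of Chst11, a chondroitin sulfotransferase, stood at 5.21 and 8.07. Alcam encodes the adhesion molecule CD166, and the member 16098 bp upstream of it had levels of 5.36 and 7.89. The others were near Larp4b (5.79 and 8.20), Gm17455 within an intron of Cdh23 (5.29 and 7.93), and Tmbim7 (4.83 and 7.88).

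The 10 members with the largest difference had WT levels of only 1.77 to 2.27 and dKO levels of 6.63 to 7.74. The top pair lay in an intron of Slc8a1, the sodium-calcium exchanger of the plasma membrane. One (chromosome 17, 81704749 to 81705228) went from 1.89 to 7.74 and the other (81712218 to 81712834) from 1.81 to 7.65. The next lay in an exon of Ryr2, the calcium release channel of the endoplasmic reticulum (chromosome 13, 11737744 to 11738102), with 1.81 and 7.54. A member in an intron of Erg, an ETS factor of stem cells and megakaryocytes (chromosome 16, 95439138 to 95439533), stood at 2.00 and 6.85. The member in an intron of Lrrk2, a leucine-rich repeat kinase of phagocytes and neurons, had 1.81 and 6.63. The remaining members of this group were near Gm595, Fam155a, 4933416C03Rik, Ssbp2 and Apon, with differences of 4.84 to 5.33. No gene was shared between both groups of 10, as the plot of levels by gene shows.

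**Figure D2:**
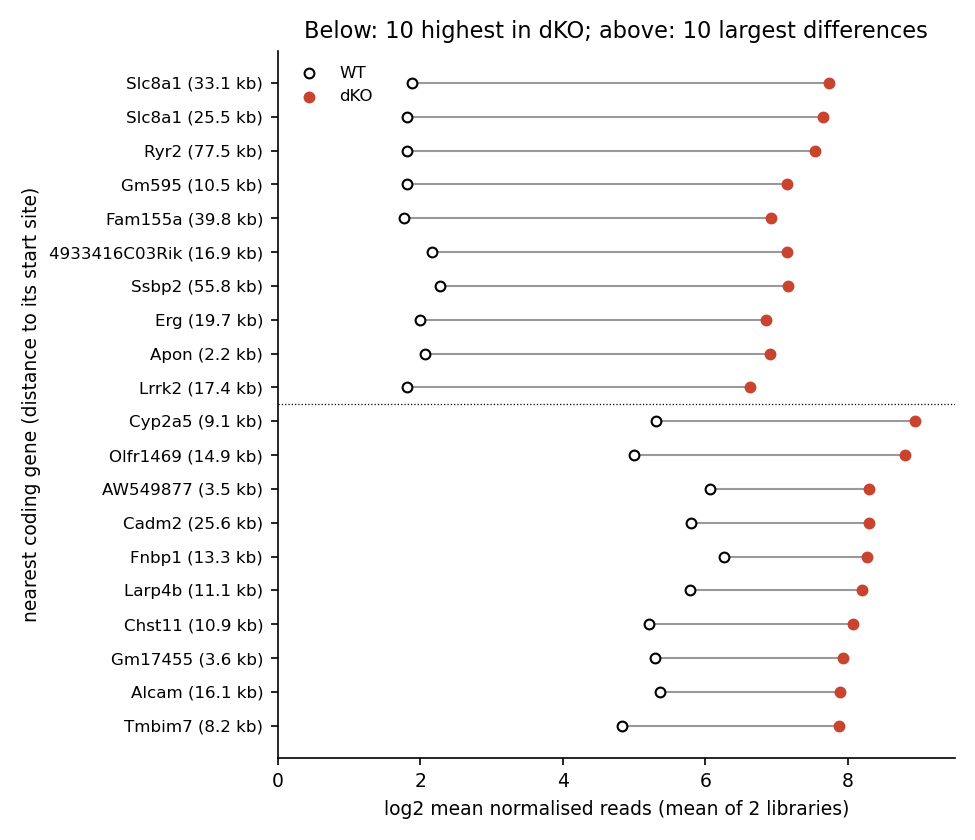
Levels in WT (open circles) and dKO (red) of the 10 members highest in dKO (lower rows) and the 10 with the largest difference (upper rows), on the log2 scale of mean normalised reads, labelled by nearest coding gene and distance. The lower rows start at 4.83 or more in WT, and the upper rows start at 2.27 or less.

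Members lay within introns of coding genes (189, 48.5%) about as often as between genes (188, 48.2%), and 13 lay in exons. Of all listed regions, 43.0% were intronic and 48.1% intergenic. The median distance to a coding start site was 19475 bp. For 51 members it was 1 to 5 kb, for 151 it was 5 to 20 kb, for 108 it was 20 to 50 kb and for 80 it was 50 to 100 kb. The members were 418 bp wide in the median, with a GC content of 48.0%, against 400 bp and 49.0% over all listed regions. Chromosome 10 held 45 members, 11.5% of them, against 7.66% of the listed regions. Chromosome 9 held 11 members (2.82% against 5.22%). No copy number of the clones was measured here, and its part in these shares was not tested.

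AP-1 was the most frequent of the 4 main motifs. Its 7 letters occurred in the central 200 bp of 156 members (40.0%, 95% Wilson interval 35.3 to 44.9). The share was 27.2% (25.5 to 29.1) of the weaker distal rises, 5.87% (3.83 to 8.89) of the mirrored losses and 17.9% of all listed regions. In windows of the same length 2 kb to either side of the members it was 4.17%. The intervals of the members overlapped none of these. At least 2 AP-1 matches were present in 38 members (9.74%), against 2.59% of all listed regions and 0 of the 341 losses (at most 1.11% by the same interval). The intervals cover counting of regions only, and regions that lie side by side are not independent.

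The PU.1 letters were present in 57 members (14.6%, 11.5 to 18.5), close to the 14.2% of the weaker rises and above the 4.11% of the losses, the 9.17% of all listed regions and the 0.782% of the neighbouring windows. RUNX letters were present in 47 members (12.1%, 9.18 to 15.7), an interval that held the 11.9% of all listed regions and the 14.9% of the weaker rises. The RUNX share was 6.39% (4.87 to 8.35) of the neighbouring windows and 8.21% (5.74 to 11.6) of the losses. The C/EBP letters occurred in 78 members (20.0%, 16.3 to 24.3), an interval that also held the 16.9% of the neighbouring windows. Among the mirrored losses the C/EBP share was 43.7% (38.5 to 49.0), and among all listed regions it was 28.4%. The full C/EBP palindrome TTGCGCAA occurred in 0 of 390 members (at most 0.975%) and in 0.339% of all listed regions. The composite C/EBP-ATF letters TGATGCAA occurred in 4 members (1.03%), in 7.04% of the losses and in 2.67% of all listed regions.

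Motifs of other factors of blood cells were searched in the same windows. GATA letters (AGATAA) occurred in 36 members (9.23%, 6.74 to 12.5), against 4.11% of the losses and 7.55% of all listed regions but 10.4% of the neighbouring windows. The CTCF core (AGGGGGC or AGGTGGC), known from chromatin boundaries, occurred in 16 members (4.10%, 2.54 to 6.56). That interval held the 5.29% of the weaker rises and the 5.74% of the neighbouring windows. The CTCF share was 10.6% of the losses and 8.15% of all listed regions. MEIS letters (TGACAG), for a cofactor of HOXA9, were in 84 members (21.5%), in 21.4% of the losses and in 18.5% of all listed regions. A composite for PU.1 and IRF factors (GGAANNGAA) was in 33 members (8.46%), 8.44% of the weaker rises, 3.81% of the losses and 6.67% of all listed regions. The letters GGAANTTCC of NF-kB were in 4 members (1.03%) and in 0.609% of all listed regions. The cyclic AMP element TGACGTCA, which differs from AP-1 by an added base, was in 0 members and in 0.459% of all listed regions. The MAF-BACH letters TGCTGANTC, of leucine zipper factors related to AP-1, were in 7 members (1.79%) and in 2.72% of all listed regions.

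**Figure D3:**
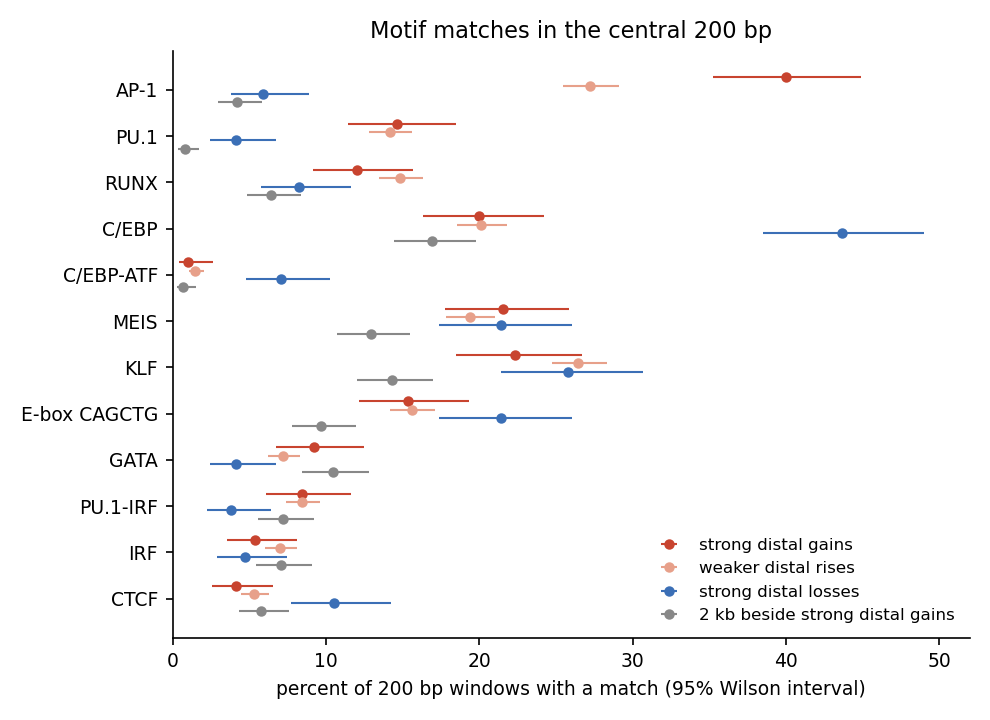
Percent of 200 bp windows holding each motif, with 95% Wilson intervals, in the 390 strong gains (red), 2323 weaker distal rises (light red), 341 strong losses (blue) and 767 windows 2 kb beside the gains (grey). AP-1 reaches 40.0% in the strong gains and 5.87% in the losses, and C/EBP shows the opposite order with 20.0% and 43.7%.

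The position of the matches was examined in 1000 bp about each centre. AP-1 letters lay in the 50 bp left of the centre in 16.9% of members and in the 50 bp right of it in 14.9%, falling to 1.54% and 0.256% in the outermost 50 bp. Of the 216 members with a match in the 1000 bp, 113 (52.3%) had their nearest match within 50 bp of the centre, a stretch that is 10% of the window. PU.1 showed the same arrangement, with 36 of 89 members (40.4%) that close. For RUNX it was 26 of 131 (19.8%). For C/EBP it was 41 of 236 (17.4%), whereas 99 of 251 mirrored losses (39.4%) had a C/EBP match within 50 bp.

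**Figure D4:**
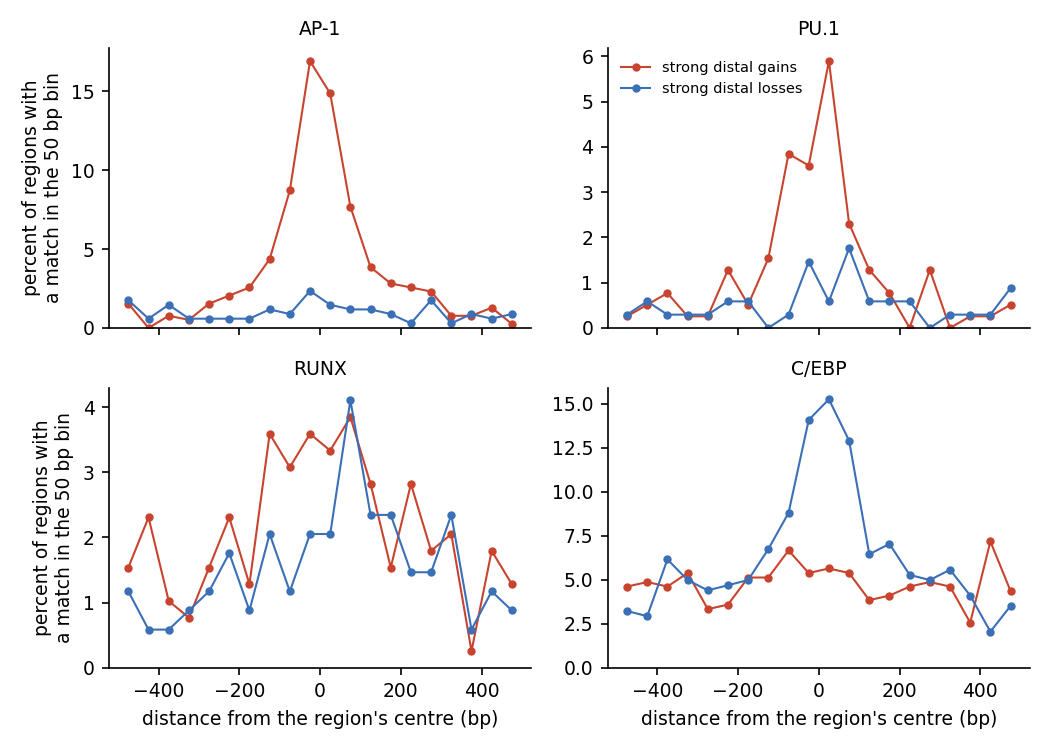
Percent of regions with a motif match in each 50 bp bin against the distance from the region's centre in bp, for strong distal gains (red, 390) and losses (blue, 341), with a separate vertical scale for each motif. AP-1 and PU.1 peak at the centre of the gains, with 16.9% and 5.90% in their highest bins, and C/EBP peaks at the centre of the losses.

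At least 2 of the 4 motifs occurred together in 67 members (17.2%, 13.8 to 21.2), an interval that held the 15.6% of the weaker rises. The share was 11.6% of all listed regions and 6.74% of the losses. AP-1 was the only one of the 4 in 106 members (27.2%), C/EBP in 44, PU.1 in 29 and RUNX in 20. None of the 4 was found in 124 members (31.8%), among them the Ryr2 and Gm595 windows printed above. AP-1 stood with PU.1 in 16 members (4.10%, against 2.88% of the weaker rises and 1.62% of all listed regions). The median spacing between the motif centres was 39 bp, and it was within 30 bp in 5 of the 16. AP-1 stood with RUNX in 16 members (4.10%, against 3.44% of the weaker rises and 1.98% of all) and with C/EBP in 22. AP-1, PU.1 and RUNX stood together in 0 members and in 12 of all 10016 listed regions (0.120%).

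Nearest coding genes numbered 349. Of these, 316 had 1 member, 28 had 2 and 5 had 3 or more. Together, 71 members formed 33 groups in which neighbours lay within 50 kb. Ryr2 held 4 members within 19649 bp, with dKO levels of 6.13 to 7.69 and WT levels of 1.81 to 3.94. Slc8a1 had 3 members, the intronic pair and 1 in front of the gene at 3.71 and 6.24. The gene with the most members was Tns3, an adhesion adaptor of the tensin family, with 5 whose dKO levels spanned 5.77 to 6.09. Its 10 other listed regions were divided, 5 higher and 5 lower in dKO (-2.20 to 2.47).

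Adcy2 encodes an adenylyl cyclase, which makes cyclic AMP. Its 3 members in introns had dKO levels of 5.86, 7.48 and 7.70 and WT levels of 3.12, 3.66 and 3.90, and no other region was listed for it. Tle4 encodes a Groucho corepressor that binds RUNX proteins. Its 3 upstream members stood at 6.21, 6.92 and 7.51 in dKO, and of its 13 other listed regions 8 were higher and 5 lower. Among genes with 2 members were Dot1l, the histone H3 lysine methyltransferase recruited by MLL fusion proteins (WT 4.45 and 4.87, dKO 6.53 and 6.99 as ranges of the pair), and Mefv, the pyrin gene of innate immune cells (dKO 6.92 to 7.16). These were picked after their values were seen.

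Of the members, 45 (11.5%) lay nearest to a gene of 18 lists of blood and signalling genes, as did 7.89% of all listed regions. Members of a list had to pass the same limits as all others, so that the counts describe where the gains lay and test nothing.

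NF-kB and TNF signalling genes had 9 of their 75 listed regions (12.0%), against 3.89% of all listed regions. The count was 6 of 33 listed regions (18.2%) when regions went to the nearest start site of any transcript. It was 4 of 40 (10%) when they had to lie in the gene body or 10 kb around it. The 9 members were at Cd44, Cflar, Ier2, Nfkb1, Nfkbiz, Plaur, Tnfaip3, Tnip3 and Zfp36l2, with differences of 2.04 to 3.31. Of the 9, 4 held AP-1 letters, as did 40.0% of all members. The strongest lay 9283 bp downstream of the start of Ier2, an immediate early gene (3.90 and 7.21, with 69.5% of its bases masked as repeats), while both other regions listed for Ier2 were lower in dKO (-3.09 and -1.83). Tnfaip3 encodes A20, which restrains NF-kB, and its member 28179 bp upstream stood at 4.20 and 6.57. The member in an intron of Cflar, an inhibitor of caspase 8, stood at 4.16 and 6.37.

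The list of ETS, RUNX and other blood transcription factors had 7 members among 160 listed regions (4.38%), a share near the 3.89% of all listed regions, with a median difference of 3.86. Only those at Erg and Runx2 were assigned to the list by the nearest start site of any transcript or by gene body. Beside Erg, a member 1247 bp upstream of a start site of Runx2, the RUNX factor of bone and of some leukaemias, went from 2.44 to 6.99. Runx3, a factor of T cells and dendritic cells, had 2 upstream members, one at 2.79 and 6.47 and the other at 1.73 and 6.08. The member upstream of Klf6, a zinc finger factor of macrophages, stood at 2.30 and 6.16. Those at Egr2 and Nfkb1 had smaller differences (2.48 and 2.04). Erg had 6 other listed regions and Runx3 had 4, all higher in dKO (1.15 to 6.82 and 0.92 to 1.61). Of the 7 others at Runx2, 5 were higher and 2 lower, of the 9 at Klf6 8 were higher and 1 lower, and of the 4 at Egr2 3 were higher and 1 lower.

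Genes described as jointly repressed by HOXA9 and C/EBPα had 4 members, 2 of them at 1 gene, among 22 listed regions, too few to read against the 3.89% of all. The study names these genes for their change in the same cells, so the list is no independent evidence of direction. Scin, an actin-severing protein, had 2 (3.69 and 6.26, and 3.44 and 6.21), Havcr2, the inhibitory receptor TIM-3, had 1 (2.75 and 6.05), and Col18a1, a collagen, had 1 (3.14 and 5.99). All 3 further regions listed at Scin were also higher in dKO (2.27 to 3.30).

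Adhesion genes had 5 members among 65 listed regions (7.69%, against 3.89% of all, and 3 of 49 by gene body). They were at Alcam, Cd44, Cdh1 and Itgb5, the last with 2. The Cdh1 member, in an intron of the E-cadherin gene, stood at 3.65 and 6.59. Cell cycle and survival genes had 4 among 47 (8.51%, against 3.89% of all). AP-1 letters were in 3 of these 4 members, too few to read against the 40.0% of all members. Among them were members at Btg1, an antiproliferative gene (4.73 and 7.14), Bcl2l11, which encodes the death protein BIM (4.71 and 6.82), and Mdm2, the ligase that degrades p53 (4.18 and 6.37).

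Cytokine genes had 4 members among 58 listed regions (6.90%, against 3.89% of all). The count was 2 of 26 by the nearest start site of any transcript and 1 of 29 by gene body, with those at Lif and Igf1 lost under both. Lif, a cytokine of the interleukin 6 family, had one at 4.38 and 6.96, Ccl9 one at 3.67 and 6.08, and Vegfa one at 3.42 and 5.86. Igf1, a growth factor made by myeloid cells, had one 15410 bp upstream at 3.80 and 5.84, although the 4 other regions listed for Igf1 were all lower in dKO (-3.57 to -1.22). Of the list of cytokine, growth factor and chemokine receptors, 1 of 68 listed regions was a member, at Il17ra (5.38 and 7.74). Socs1, the feedback inhibitor of JAK kinases, had a member at 5.66 and 7.77, and its other listed region was lower (-0.90).

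The lists of lineage genes held 18 to 42 listed regions each, too few to read a departure from the overall share of 3.89%. Tlr4, the endotoxin receptor (5.46 and 7.56), and Msr1, a scavenger receptor (4.16 and 6.18), were the 2 members among 42 listed monocyte and macrophage regions. Anxa1, an annexin abundant in neutrophils, had 1 of the 24 listed neutrophil regions, 2635 bp upstream (3.69 and 7.30). Cd6 and Havcr2 had 2 of the 20 listed T and NK cell regions. Stem cell and MLL target genes, a larger list, had 3 of 94 listed regions (3.19%, near the overall share), at Bahcc1 (3.59 and 6.27), Eya1 (3.25 and 6.00) and Igf1. Mast cell and basophil genes had 0 members among 34 listed regions, although 32 of the 34 were higher in dKO and 14 by at least 2. Of the 42 monocyte and macrophage regions, 39 were higher and 7 by at least 2, and of all listed regions 60.3% and 19.3%. AP-1, MAF and BACH factor genes had 0 of 22, B lineage genes 0 of 18, and erythroid and megakaryocyte genes 0 of 18. The C/EBP family had 1 of only 12, 58492 bp downstream of the deleted Cebpb (3.67 and 6.15), which was lost under both other assignments. The stem cell list kept 1 member by the nearest start site of any transcript and 2 by gene body.

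The other listed regions at the genes of the members, which the rule did not select, are measured on the same 4 libraries and are given as a description. Of 565 other distal regions with the same nearest genes, 459 (81.2%) were higher in dKO, against 59.0% of all other distal listed regions. A listed region within 1 kb of a coding start site was found for 60 of the 349 genes (17.2%). The share was 15.1% of genes nearest to the mirrored losses and 10.2% of genes nearest to any distal region. This promoter region was only higher in dKO for 53 of the 60 (88.3%) and only lower for 7. Of the 491 such genes nearest to any distal region, it was only higher for 267 and only lower for 223. Among genes nearest to the mirrored losses it was 3 higher and 43 lower of 47. Neighbouring regions of a gene share its chromosome segment, and the part of copy number in this was not tested.

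Promoters were not held to the members' limit on the difference, so their levels cannot be set against those of the members. They were still selected for a difference, because only regions past the authors' cutoff between WT and dKO are listed. Promoters that did not pass that cutoff are absent. Runx2 had a promoter region at 6.98 in WT and 8.32 in dKO, Erg at 5.66 and 7.45, Havcr2 at 4.93 and 6.40, and Egr2 at 8.26 and 8.95. Cadm2 had one at 6.04 and 8.26, Slc8a1 at 1.93 and 4.74 and Ccl9 at 0.85 and 4.42. Among the 7 genes with a lower promoter were Ank2, Cebpb, Mxi1, Prune2, Sdr16c6 and Vrk1, named after their values were seen. Cebpb is the deleted gene. Mxi1, an antagonist of MYC, had 2 members upstream or within the gene (differences of 2.02 to 4.20) and a promoter region at 7.07 in WT and 6.10 in dKO.

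**Figure D5:**
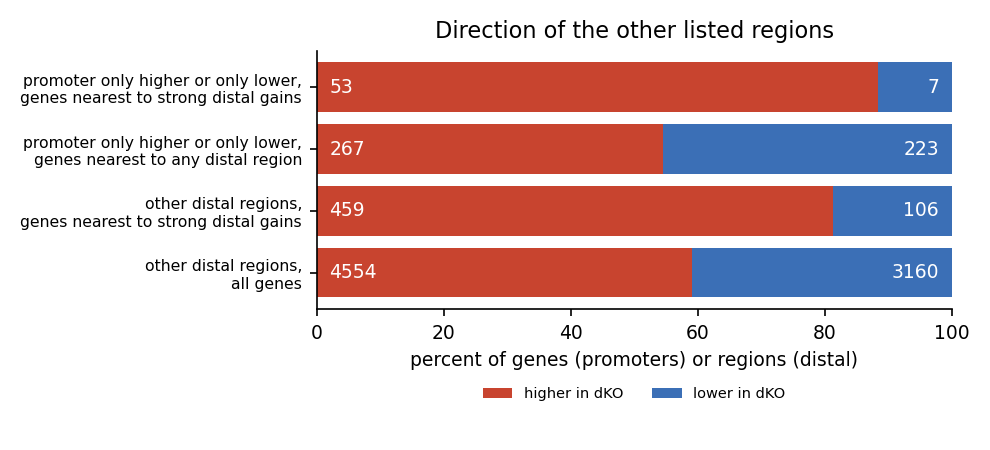
Percent higher (red) and lower (blue) in dKO, with counts in the bars: genes with a changed promoter in the upper bars and other distal regions in the lower bars. Among genes nearest to members, 53 of 60 with a listed promoter and 459 of 565 other distal regions were higher, against 267 of 491 (54.4%) and 4554 of 7714 (59.0%) in the broader sets.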

How the data were processed

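Per the study's methods, the authors processed the ATAC-seq reads with PiGx, aligned them to mm10 with Bowtie2, called peaks with MACS and compared groups with DiffBind (MACS2 and DiffBind 2.14.0 in the submitters' processing notes). The handling of duplicates and of the transposase offset is not given in the sources used here. Kept duplicates could raise the levels of strong regions, which was not tested. The deposited table holds log2 mean normalised reads over both groups, WT and dKO. Its columns of fold change, p-value and false discovery rate are the authors' comparison and were not used. Both deposited files (2) were identical and gave 1 table, so LAP* was not analysed here.

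Distances, introns and nearest genes used GENCODE release M21, with start sites of protein-coding transcripts, and sequences used GRCm38.p6 (mm10). In all, 22 motifs were searched as exact letters on both strands in 200 bp about each centre with Python 3.11.15 and pandas 2.3.3, and Wilson intervals came from SciPy 1.17.1. The search and distances were tested on simulated data. The plan to print values per library could not be followed, because only group means were available. Named by plan were the 10 highest members, the 10 with the largest difference, up to 3 per gene list, genes with 3 or more members and regions at the limits. Further genes of some lists, some genes with 2 members and some promoters were named outside this plan. The members and lists were chosen with earlier results of these data known. Numbers of members, motif shares and gene assignment were recomputed under other settings. A few items, 1 gene list among them, are not reported here.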

Additional observations from a re-analysis of the deposited data

How the results depend on the processing

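No paired analysis was possible because WT and dKO each come as 1 mean, with nothing per library. For the same reason no library could be left out and no other scaling tried. The number of members, 390, depended on the limits: it was 626 at a mean level of 4.5, 227 at 5.5, 964 at a difference of 1.5 and 194 at 2.5. Other limits on the WT level or on the distances gave 310 to 583, and counting start sites of all transcripts of coding genes, added after seeing the data, gave 411. Motif shares moved with the length searched. Over whole regions AP-1 reached 51.5%, PU.1 19.5%, RUNX 22.6% and C/EBP 35.9%, and in 100 bp they fell to 27.7%, 8.72%, 5.38% and 10.0%. Longer windows hold more letters by construction. The palindromic C/EBP form gave 0%. Stricter limits gave AP-1 shares of 38.1% and 41.0%. Leaving out members at least 50% masked gave 41.7%, and leaving out chromosome 10 gave 39.1%, both added after seeing the data. With gene models of all types, 53.6% of members were intronic and 42.6% intergenic. Assigning members to the gene body and 10 kb around it put 29 at listed genes in place of 45, and the nearest start site of any transcript put 33 there. NF-kB genes then had 4 and 6 members in place of 9, and blood transcription factors 2 under both in place of 7. The listed regions at NF-kB genes also fell, to 40 and 33 in place of 75. Adhesion genes had 3 by gene body in place of 5, and cytokine genes 1 and 2 in place of 4. The C/EBP family had 0 under both in place of 1, and stem cell genes 2 and 1 in place of 3. The JAK-STAT list had 0 by gene body in place of 1.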
